A study of Mus musculus with 9 samples.

Results

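Folate one-carbon metabolism carries single carbon units on tetrahydrofolate and hands them to purine, thymidylate and methionine synthesis. The genes described here are 8 enzymes of this pathway, chosen by symbol from the 16428 genes of the table. They are 4 cytosolic enzymes (Aldh1l1, Mthfd1, Shmt1 and Mtr) and 4 mitochondrial ones (Aldh1l2, Mthfd2, Mthfd1l and Shmt2). All 8 were found and all 8 passed the filter on low values (a mean of at least 10 over the 9 libraries). Aldh1l1 was chosen because it was higher in both treated groups, so its changes are described without a test. The other 7 were listed for their place in the pathway, but with results of these comparisons known, and their p-values are not independent evidence.

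The libraries hold poly(A) RNA of mouse embryonic fibroblasts, connective tissue cells taken from embryos and grown in culture. Every group carries the genotype CARM1f/f ER-Cre, a Carm1 gene flanked by recombinase sites together with a Cre recombinase that tamoxifen activates. The KO group (3 libraries) received 2 uM 4-OHT, an active form of tamoxifen, for 6 days. The CARM1i group (3 libraries) received 1 uM TP-064, an inhibitor of the arginine methyltransferase CARM1, for 6 days, and the WT group (3 libraries) is labelled as having no treatment. WT cells therefore also carry the floxed gene and the recombinase. 4-OHT cannot be told apart from the deletion, since no group had it alone. The labels name no promoter for the recombinase, no number of clones and no separate cultures behind the replicates. The p-values therefore rest on library-to-library spread alone, part of which may be technical.

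Recovered reads per library ran from 28657018 to 35842771. Carm1 averaged 758 ± 43.0 normalized counts in KO cells, 1057 ± 64.0 in CARM1i cells and 1104 ± 34.1 in WT cells (SD, n = 3 each), counted over the whole gene, so these values do not check the deletion of the floxed part. All 8 fibroblast markers, among them Col1a1, Pdgfra and Vim, were present. Their summed level ran from 181218 to 191508 normalized counts in KO, 213699 to 237066 in CARM1i and 245016 to 251921 in WT libraries. By limma at an adjusted p under 0.05, 6 of the 8 were lower in KO than in WT, beside 20.5% of all tested genes. The markers did not move as one, since Thy1 was higher (means of 15871 in KO, 16896 in CARM1i and 13960 in WT) and S100a4 was not called. CARM1i replicate 3 stood apart from its group on the third principal component (9.58% of the variance), at -19.5 against 11 and 11.7. On the same component WT replicate 3 stood apart from its group too, at 10.3 against -8.65 and -5.68.

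In the cytosol, serine hydroxymethyltransferase (Shmt1) moves a carbon from serine to tetrahydrofolate, and Mthfd1 interconverts the methylene, methenyl and formyl forms. Mtr uses the methyl form to make methionine, and Aldh1l1 oxidizes the formyl carbon to carbon dioxide, which takes it out of the pool and yields NADPH. In mitochondria, Shmt2, Mthfd2 and Mthfd1l carry a serine carbon in sequence to formate, which leaves for the cytosol, and Aldh1l2 is the mitochondrial counterpart of Aldh1l1. In dividing cells the mitochondrial branch is known as the main source of formate. Aldh1l1 is known for high expression in liver and in astrocytes of the brain, and Mthfd2 for expression in embryonic and tumor cells.

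The upstream sequences of 3 genes are printed because these genes mark the ends of the data described below. Aldh1l1 was the member higher in treated cells, Mthfd1l was the member with the largest decrease, and Shmt2 had the highest level. RefSeq promoter windows on GRCm38.p6, which run from 250 bases before to 50 bases after a start site, were found for 7 of the 8 genes. Capitals mark every match, on either strand, of 5 motifs. These were the ATF4 element TGATGNAA, the NRF1 site (the run of 10 capitals in the Shmt2 window), the E-box CACGTG, the CCAAT box CCAAT and the GC box GGGCGG.
Aldh1l1 (chr6:90550543-90550842, plus strand): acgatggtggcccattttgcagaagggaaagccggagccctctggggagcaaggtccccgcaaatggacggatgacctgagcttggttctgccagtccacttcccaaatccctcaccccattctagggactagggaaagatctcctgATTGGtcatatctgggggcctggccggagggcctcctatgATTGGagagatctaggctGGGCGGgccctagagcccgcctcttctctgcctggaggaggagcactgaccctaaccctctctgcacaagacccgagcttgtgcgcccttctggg
Mthfd1l (chr10:3972825-3973124, plus strand): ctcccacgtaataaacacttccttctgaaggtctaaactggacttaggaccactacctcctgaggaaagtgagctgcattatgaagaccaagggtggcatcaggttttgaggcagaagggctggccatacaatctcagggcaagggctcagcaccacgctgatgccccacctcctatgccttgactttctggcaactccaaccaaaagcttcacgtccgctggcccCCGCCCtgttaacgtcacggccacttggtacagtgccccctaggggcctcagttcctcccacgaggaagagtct
Shmt2 (chr10:127522395-127522694, minus strand): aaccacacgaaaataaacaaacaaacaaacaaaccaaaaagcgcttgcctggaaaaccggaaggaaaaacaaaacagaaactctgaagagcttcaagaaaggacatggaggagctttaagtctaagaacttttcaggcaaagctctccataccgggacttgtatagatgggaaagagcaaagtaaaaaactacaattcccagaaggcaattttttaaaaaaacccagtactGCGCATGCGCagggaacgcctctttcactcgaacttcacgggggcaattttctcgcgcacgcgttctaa

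The Aldh1l1 window lies inside the annotated span of the gene and held 2 CCAAT boxes, 103 and 63 bases before the start, and 1 GC box. Mthfd1l held 1 GC box, and Shmt2 held 1 NRF1 site that starts 19 bases before the start. The CCAAT box occurred in 37.4% of 32817 promoter windows and the GC box in 35.6%, against 0.966% for the NRF1 site. In these 3 windows no matches overlapped each other. No ATF4 element or E-box was found in the 7 windows, beside 3.97% and 7.15% of all windows. CpG dinucleotides numbered 9 in the Aldh1l1 window, 8 in the Mthfd1l window and 13 in the Shmt2 window, against a median of 7 over all windows. These matches describe letters in the windows and do not show binding.

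Aldh1l1 (ENSMUSG00000030088.15; mm10, chromosome 6, 90486427 to 90600203, plus strand, protein coding) was the only member whose level was higher in both treated groups. It measured 273, 334 and 283 normalized counts in KO replicates 1 to 3, 163, 158 and 170 in the CARM1i libraries, and 67.2, 89.1 and 82.3 in the WT libraries. The groups did not overlap, with KO highest, CARM1i between and WT lowest. Groups lay apart and higher in 26.7% of 14560 tested genes for KO against WT and in 16.7% for CARM1i against WT, and apart and lower in 18.6% for CARM1i against KO. The means were 297 ± 32.3 in KO, 164 ± 5.89 in CARM1i and 79.5 ± 11.2 in WT (SD, n = 3 each). On the log2(value + 1) scale the difference was 1.89 ± 0.13 (SE) for KO against WT, a 3.71-fold change, and 1.04 ± 0.13 for CARM1i against WT, a 2.06-fold change. Between the treated groups it was -0.85 ± 0.13 for CARM1i against KO. The annotated genes Gm45901, Gm44236 and Gm15756 share parts of its span and were not analysed here.

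**Figure D1:**
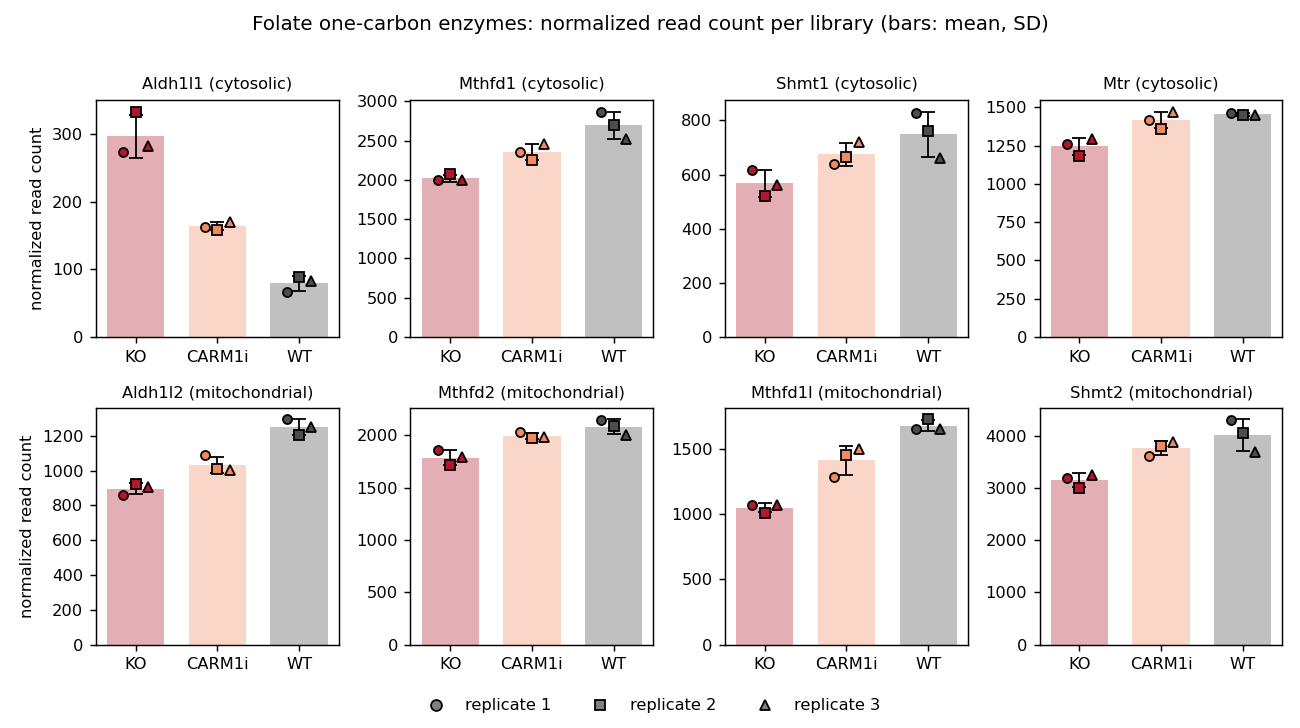
Normalized read counts (vertical axis, from 0, a scale per gene) of the 8 enzyme genes in the KO, CARM1i and WT libraries; each symbol is 1 library, bars are means and whiskers are SD (n = 3). Aldh1l1 is highest in KO and lowest in WT, and the other 7 genes have their lowest mean in KO and their highest in WT.

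The other 7 enzymes went the opposite way. All 7 fell in KO against WT, and none of their KO libraries reached the WT range. Of all tested genes 41.9% were called in this comparison (21.4% higher and 20.5% lower), and 25.9% had all KO libraries below WT. Their median log2 fold change was -0.40, against -0.00433 over all tested genes, and the largest decrease was that of Mthfd1l. In CARM1i against WT 3 of the 7 fell (Mthfd1, Aldh1l2 and Mthfd1l) and 4 did not pass. In that comparison 19.1% of all genes were called (10.5% higher and 8.59% lower), and 16.7% had all CARM1i libraries below WT. Since the cells were measured in bulk, fewer cells of a type and less RNA per cell cannot be told apart.

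Among the cytosolic enzymes, Mthfd1 (ENSMUSG00000021048.7; chromosome 12, 76255298 to 76319803, plus strand) measured 1992, 2072 and 1994 normalized counts in KO, 2355, 2254 and 2457 in CARM1i and 2867, 2698 and 2516 in WT libraries. The 3 groups did not overlap. It fell by 0.41 ± 0.05 on the log2 scale in KO against WT (limma adjusted p = 1.193e-06) and by 0.19 ± 0.05 in CARM1i against WT (limma adjusted p = 0.007274). Without WT replicate 1 the second call ended (-0.15, adjusted p = 0.0528). Among the 20 fits run, 1 of them the reported one, its adjusted p for CARM1i against WT ranged from 0.001441 to 0.0528.

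Shmt1 (ENSMUSG00000020534.14; chromosome 11, 60788104 to 60811718, minus strand) measured 618, 521 and 562 normalized counts in KO, 640, 664 and 721 in CARM1i and 826, 761 and 661 in WT libraries. Its KO libraries lay below all others, and its CARM1i and WT libraries overlapped. The log2 change in KO against WT was -0.40 ± 0.08 (limma adjusted p = 0.0006802), and in CARM1i against WT it was -0.15 ± 0.08 (limma adjusted p = 0.2443). The CARM1i value was -0.07 without WT replicate 1 (limma adjusted p = 0.6489) and -0.23 without WT replicate 3 (limma adjusted p = 0.0531), the ends of its range over the 20 fits. The gene shares 184 bases with Smcr8 on the opposite strand, and the strand setting of the counting is not given. Smcr8 averaged 3439 normalized counts in KO, 3166 in CARM1i and 2669 in WT libraries, a group order opposite to that of Shmt1.

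Mtr (ENSMUSG00000021311.9; chromosome 13, 12182712 to 12258113, minus strand) measured 1261, 1184 and 1290 normalized counts in KO, 1419, 1360 and 1470 in CARM1i and 1463, 1449 and 1450 in WT libraries. The KO libraries were apart from the rest, while the CARM1i libraries lay on both sides of the WT values. Mtr fell by 0.22 ± 0.05 in KO against WT (limma adjusted p = 0.0007372). In CARM1i against WT the log2 change was -0.04 ± 0.05 (limma adjusted p = 0.6332), the smallest among the 8 members.

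Among the mitochondrial enzymes, Mthfd1l (ENSMUSG00000040675.17; chromosome 10, 3973118 to 4167081, plus strand) measured 1067, 1010 and 1067 normalized counts in KO, 1285, 1451 and 1497 in CARM1i and 1649, 1727 and 1654 in WT libraries. The groups were apart, with KO lowest and WT highest. Mthfd1l, which releases formate, fell by 0.68 ± 0.05 in KO against WT (limma adjusted p = 1.265e-08), to 62.5% of the WT mean. In CARM1i against WT it fell by 0.25 ± 0.05 (limma adjusted p = 0.002868), to 84.2% of the WT mean.

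Aldh1l2 (ENSMUSG00000020256.14; chromosome 10, 83487450 to 83534140, minus strand) measured 860, 920 and 908 normalized counts in KO, 1087, 1006 and 1005 in CARM1i and 1295, 1205 and 1251 in WT libraries. These groups did not overlap either, and their order was the reverse of that of Aldh1l1. Aldh1l2 fell by 0.48 ± 0.05 in KO against WT (limma adjusted p = 6.24e-07) and by 0.28 ± 0.05 in CARM1i against WT (limma adjusted p = 0.000938). It shares 1056 bases with D10Wsu102e on the opposite strand, which averaged 3598 normalized counts in KO, 3530 in CARM1i and 3359 in WT libraries.

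Shmt2 (ENSMUSG00000025403.5; chromosome 10, 127517123 to 127522444, minus strand) measured 3200, 2999 and 3263 normalized counts in KO, 3619, 3805 and 3882 in CARM1i and 4304, 4063 and 3700 in WT libraries. KO libraries were the lowest, and WT replicate 3 lay within the CARM1i range. The log2 change was -0.35 ± 0.05 in KO against WT (limma adjusted p = 1.449e-05) and -0.09 ± 0.05 in CARM1i against WT (limma adjusted p = 0.2209). Without WT replicate 3 the CARM1i change was -0.15 and passed the threshold (limma adjusted p = 0.02851; range 0.02851 to 0.6556 over the 20 fits).

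Mthfd2 (ENSMUSG00000005667.8; chromosome 6, 83305691 to 83325908, minus strand) measured 1858, 1715 and 1795 normalized counts in KO, 2031, 1976 and 1989 in CARM1i and 2151, 2095 and 2008 in WT libraries. KO libraries lay below the others, and CARM1i and WT overlapped. It fell by 0.22 ± 0.04 in KO against WT (limma adjusted p = 0.0003366), and in CARM1i against WT the log2 change was -0.06 ± 0.04 (limma adjusted p = 0.362). Within its span lies the same-strand model Gm43890, at a mean of 31.0 normalized counts in KO, 35.2 in CARM1i and 40.0 in WT libraries.

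**Figure D2:**
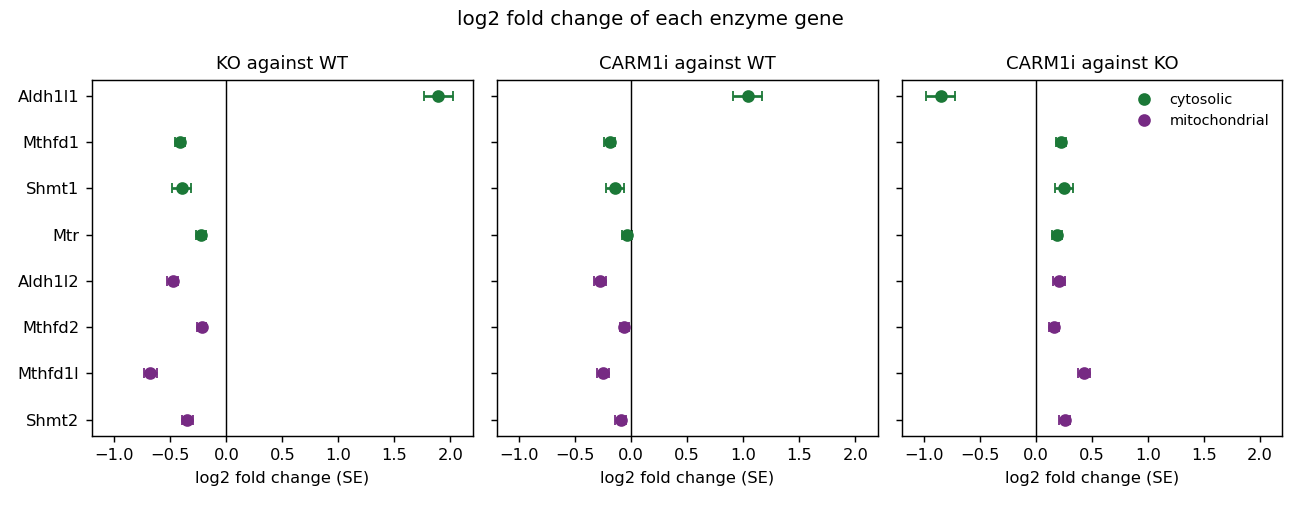
Log2 fold change (horizontal axis, log2 of value + 1; whiskers are SE) of each enzyme gene in KO against WT, CARM1i against WT and CARM1i against KO, colored by compartment. Aldh1l1 stands at 1.89, 1.04 and -0.85, and the other 7 genes lie on the other side of 0 in each panel.

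The comparison of CARM1i with KO asked whether the responses differed in size. Its log2 differences come from CARM1i and KO libraries, while its SE and adjusted p also draw on the spread of the WT libraries in the shared fit. All 7 enzymes other than Aldh1l1 were higher in CARM1i than in KO cells, beside 23.6% of all genes called in this comparison, 12.1% called higher and 18.3% with all CARM1i libraries above KO. Their log2 differences ran from 0.16 for Mthfd2 to 0.43 for Mthfd1l, with a median of 0.22 against a median of -0.00208 over all tested genes. For Mthfd1l the difference was 0.43 ± 0.05 (limma adjusted p = 1.38e-05), for Shmt2 0.26 ± 0.05 (limma adjusted p = 0.0008077) and for Mthfd1 0.22 ± 0.05 (limma adjusted p = 0.00202). Mtr stood at 0.19 ± 0.05 (limma adjusted p = 0.006747), Aldh1l2 at 0.20 ± 0.05 (limma adjusted p = 0.00765) and Mthfd2 at 0.16 ± 0.04 (limma adjusted p = 0.009305). The call of Mthfd2 ended without KO replicate 2 (0.13, adjusted p = 0.06077; range 0.007167 to 0.06077 over the 20 fits). Shmt1, at 0.25 ± 0.08 (limma adjusted p = 0.03222), lost its call under quantile normalization (0.23, adjusted p = 0.06132) and without CARM1i replicate 2 (0.26, adjusted p = 0.06157), CARM1i replicate 3 (0.20, 0.09002), KO replicate 2 (0.19, 0.156) or KO replicate 3 (0.25, 0.09006), where the range over the 20 fits was 0.01573 to 0.156.

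Across the 9 libraries the 7 enzymes varied together, with Pearson correlations of log2 values from 0.76 (Shmt1 with Aldh1l2) to 0.96 (Shmt1 with Shmt2) over the 21 pairs. The correlation of Aldh1l1 with them ran from -0.97 with Aldh1l2 to -0.85 with Mtr. These describe 3 groups of 3 libraries that share their group differences, so they carry no p. Means in the order KO below CARM1i below WT were found in 29.7% of all tested genes, and in 7.01% the 3 groups were apart in that order.

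Levels of different genes can be set side by side only per length, here as normalized reads per kilobase of exon, counting each exonic base of any annotated transcript once. Shmt2 had the highest level of the 8 in every library, at 1014 ± 44.4 in KO, 1212 ± 43.5 in CARM1i and 1294 ± 97.9 per kilobase in WT (SD, n = 3 each). Mthfd2 followed in the treated groups, at 513 ± 20.5 in KO and 573 ± 8.27 in CARM1i, above Mthfd1 at 455 ± 10.3 in KO and 530 ± 22.8 in CARM1i. In WT Mthfd2 (598 ± 20.6) and Mthfd1 (606 ± 39.5) overlapped.

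Mthfd1l came after Mthfd1 and Mthfd2 in all groups, at 236 ± 7.41 in KO, 318 ± 25.2 in CARM1i and 378 ± 9.75 in WT per kilobase. Shmt1 and Mtr, the next, overlapped in each group and lay between 134 and 213 per kilobase. Aldh1l2 was at 119 ± 4.24 in KO, 138 ± 6.30 in CARM1i and 167 ± 6.04 in WT, where it overlapped Mtr and Shmt1. Aldh1l1 had the lowest level in every group even after its change, at 65.7 ± 7.16 in KO, 36.3 ± 1.30 in CARM1i and 17.6 ± 2.48 in WT.

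**Figure D3:**
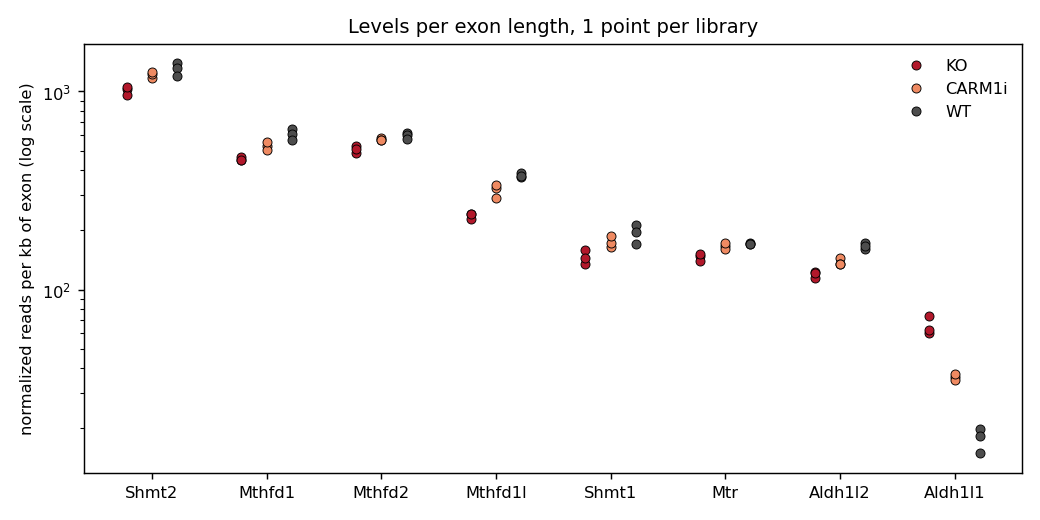
Normalized reads per kilobase of exon (vertical axis, log scale) of the 8 genes, 1 point per library, in the KO, CARM1i and WT groups, with genes ordered by their WT level. Shmt2 is at the top near 1014 to 1294 and Aldh1l1 at the bottom, from 65.7 in KO to 17.6 in WT.

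Cytosolic and mitochondrial enzymes fell alike in count. Of the cytosolic enzymes other than Aldh1l1, 3 of 3 fell in KO against WT by 0.22 to 0.41 on the log2 scale, and of the mitochondrial ones 4 of 4 fell by 0.22 to 0.68, beside 20.5% of all genes. Summed per kilobase, the 4 cytosolic genes came to 812 ± 4.34 in KO, 907 ± 38.8 in CARM1i and 988 ± 60.1 in WT. The 4 mitochondrial genes summed to 1883 ± 66.4 in KO, 2241 ± 55.5 in CARM1i and 2436 ± 122 in WT. The cytosolic share of the total was 29.5 to 31.0% in KO, 27.9 to 29.3% in CARM1i and 28.6 to 29.1% in WT libraries. With Aldh1l1 left out, the share was 27.9 to 29.0% in KO, 27.1 to 28.5% in CARM1i and 28.2 to 28.8% in WT libraries, so that all groups overlapped. Aldh1l1 itself made up 2.22 to 2.82% of the summed level in KO, 1.12 to 1.17% in CARM1i and 0.414 to 0.572% in WT libraries.

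Ratios of paired enzymes within a library hardly depend on how libraries are scaled. Shmt1 over Shmt2 gave log2 values of -2.37, -2.52 and -2.54 in KO, -2.50, -2.52 and -2.43 in CARM1i and -2.38, -2.41 and -2.48 in WT libraries, and all groups overlapped. Mthfd1 over Mthfd1l was 0.90, 1.04 and 0.90 in KO, 0.87, 0.63 and 0.71 in CARM1i and 0.80, 0.64 and 0.60 in WT. For this pair KO lay above the other groups, and CARM1i and WT overlapped.

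The same Mthfd1 over Mthfd2 was 0.10, 0.27 and 0.15 in KO, 0.21, 0.19 and 0.30 in CARM1i and 0.41, 0.37 and 0.33 in WT libraries. Here WT lay above both treated groups, which overlapped. In KO cells Mthfd1 was thus higher relative to Mthfd1l and lower relative to Mthfd2 than in WT cells. Aldh1l1 over Aldh1l2 was -1.65, -1.46 and -1.68 in KO, -2.73, -2.66 and -2.56 in CARM1i and -4.25, -3.74 and -3.91 in WT, with all groups apart. Per kilobase of exon the Aldh1l2 level was 1.83-fold that of Aldh1l1 in KO, 3.80-fold in CARM1i and 9.63-fold in WT libraries.

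**Figure D4:**
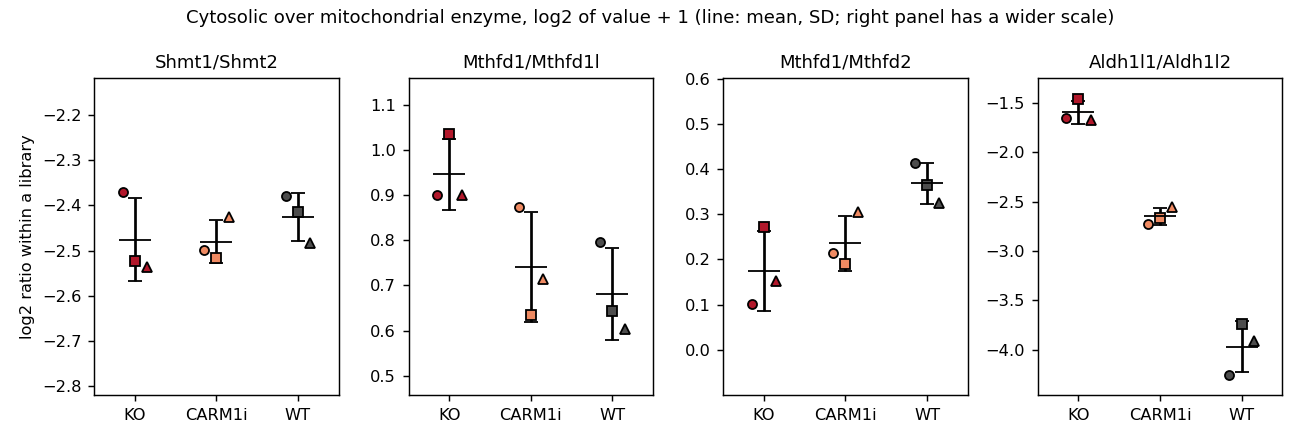
Log2 ratio of the cytosolic to the mitochondrial enzyme within each library (vertical axis, log2 of value + 1; circle, square and triangle are replicates 1, 2 and 3; the line is the mean and whiskers are SD) for 4 pairs in KO, CARM1i and WT. Aldh1l1/Aldh1l2 separates all groups, on a wider scale than the other panels, and Shmt1/Shmt2 overlaps in all groups.

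Of 40 further folate and one-carbon genes, 31 had enough reads to be tested. In KO against WT 10 fell, 4 rose and 17 did not pass, beside 20.5% lower and 21.4% higher of all tested genes, with a median log2 change of -0.04. In CARM1i against WT 2 fell, 3 rose and 26 did not pass, beside 8.59% lower and 10.5% higher, with a median of -0.05. The count in CARM1i against WT was 9 under quantile normalization, against 5.

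In thymidylate synthesis and upkeep of methionine synthase, Tyms fell and Mtrr rose in KO, and the same directions were called in CARM1i. Tyms, the thymidylate synthase, averaged 1121 ± 60.1 normalized counts in KO, 1530 ± 65.4 in CARM1i and 1832 ± 54.6 in WT cells (SD, n = 3 each). It fell by 0.71 ± 0.05 in KO (limma adjusted p = 1.99e-09) and by 0.26 ± 0.05 in CARM1i (limma adjusted p = 0.001002). Mtrr, which keeps the methionine synthase Mtr active, was 934 ± 15.4 in KO, 859 ± 26.9 in CARM1i and 770 ± 27.3 in WT cells. It rose by 0.28 ± 0.05 in KO, while its call in CARM1i (0.16 ± 0.05, limma adjusted p = 0.0414) ended in 11 of the alternative fits, with adjusted p up to 0.1392.

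Of 6 tested genes for folate transport and polyglutamation, 2 rose and 2 fell in KO, beside 21.4% higher and 20.5% lower of all tested genes. Ggh, the hydrolase that removes glutamates from stored folate in lysosomes, averaged 990 ± 48.7 normalized counts in KO, 714 ± 40.0 in CARM1i and 525 ± 31.2 in WT cells, with all groups apart. It rose by 0.91 ± 0.06 in KO (limma adjusted p = 2.275e-09) and by 0.44 ± 0.06 in CARM1i (limma adjusted p = 7.947e-05). Slc46a1, the proton-coupled folate transporter, rose by 0.56 ± 0.08 in KO and stood at 0.22 ± 0.08 in CARM1i (limma adjusted p = 0.07353). The reduced folate carrier Slc19a1 (-0.18 ± 0.06, limma adjusted p = 0.02934) and Fpgs, which adds glutamates (-0.17 ± 0.06, limma adjusted p = 0.02852), fell in KO. Both calls ended under quantile normalization and without KO replicate 2 or 3, and also without WT replicate 2 or 3 for Slc19a1 and without WT replicate 1 or with DESeq2 for Fpgs.

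In serine synthesis, which feeds the pathway, 2 of 3 genes fell in KO, beside 20.5% of all tested genes. In CARM1i none was called by limma, edgeR or DESeq2, and 1 had an unadjusted limma p under 0.05. Psat1 fell by 0.21 ± 0.04 (6579 ± 377 normalized counts in KO and 7614 ± 371 in WT) and Phgdh by 0.19 ± 0.04 (5846 ± 234 in KO and 6648 ± 223 in WT), while Psph was at -0.12 ± 0.06 (limma adjusted p = 0.1548). The purine enzymes that take up the formyl carbon, Gart (-0.16 ± 0.04) and Atic (-0.11 ± 0.04), fell in KO, but the call of Atic ended with the replicate number as a term and without KO replicate 1, 2 or 3 or WT replicate 1 or 2. Of 6 tested genes for glycine cleavage and other mitochondrial folate steps none passed under limma, edgeR or DESeq2 in any comparison. Of all tested genes limma called 41.9% in KO, 19.1% in CARM1i and 23.6% in CARM1i against KO. An unadjusted limma p under 0.05 was reached by 1 of the 6 in KO, 1 in CARM1i and 0 in CARM1i against KO. Tested genes named here were Sardh (0.16 ± 0.07 in KO), Mtfmt (0.15 ± 0.08), Dld (-0.05 ± 0.04) and Gcsh (0.03 ± 0.05). Gldc, of the same subgroup, missed the filter at a mean of 9.61. It averaged 11.9 normalized counts in KO, 13.1 in CARM1i and 3.84 in WT. All its KO and CARM1i libraries lay above WT, as in 26.7% and 16.7% of tested genes.

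In the methionine cycle and transsulfuration 2 of 7 tested genes fell and 1 rose in KO, beside 20.5% lower and 21.4% higher of all tested genes. Ahcy, which hydrolyses S-adenosylhomocysteine, fell by 0.23 ± 0.04 and its relative Ahcyl1 by 0.13 ± 0.04. Ahcyl2, a further relative of Ahcy, rose by 0.46 ± 0.06 in KO (limma adjusted p = 3.231e-06) and by 0.27 ± 0.06 in CARM1i (limma adjusted p = 0.002852). Cth, of transsulfuration, was at -0.18 ± 0.10 in KO (limma adjusted p = 0.1812) and 0.15 ± 0.10 in CARM1i (limma adjusted p = 0.346).

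**Figure D5:**
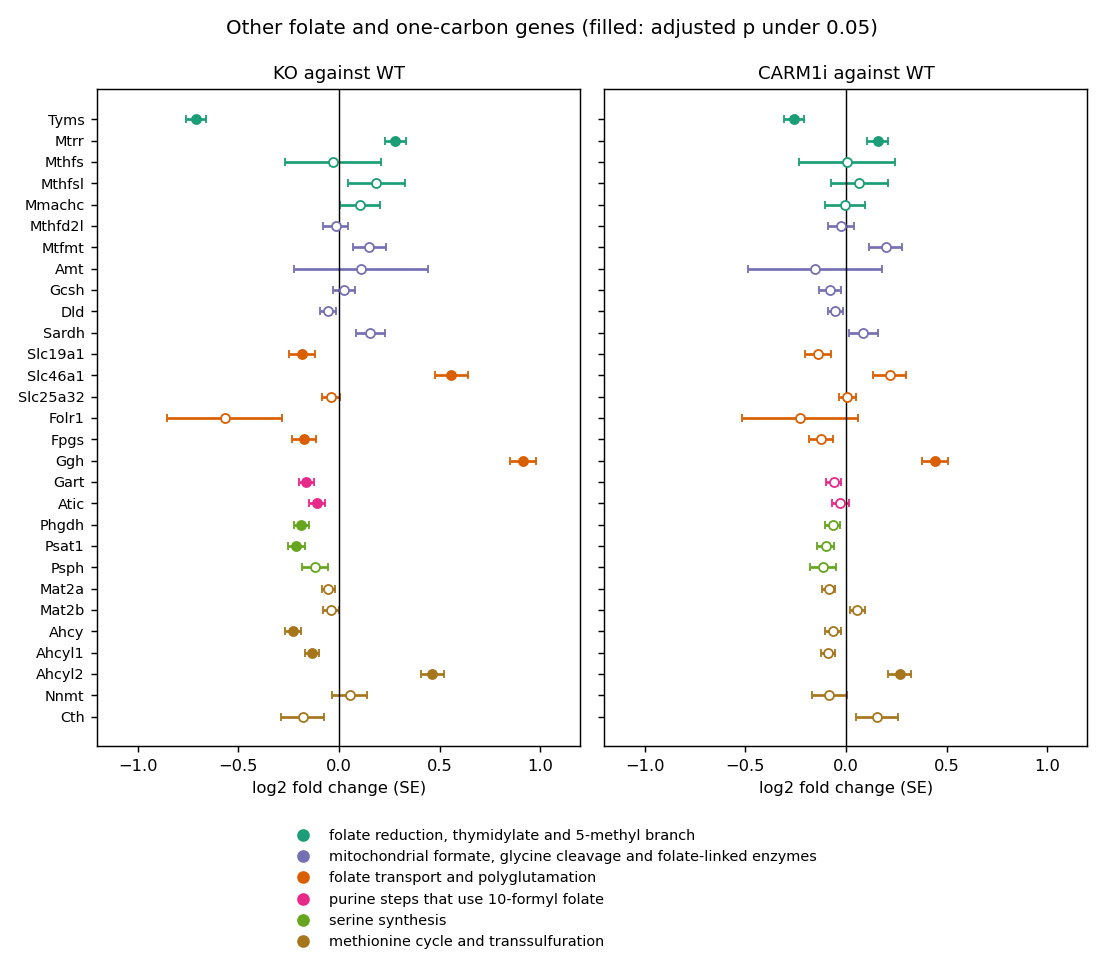
Log2 fold change (horizontal axis, log2 of value + 1; whiskers are SE) of further folate and one-carbon genes in KO against WT and CARM1i against WT, colored by subgroup, with filled points for an adjusted p under 0.05. Among the called genes drawn, Tyms lies farthest to the left in both panels and Ggh farthest to the right.

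Markers of proliferation moved with the enzymes that fell. All 10 fell in KO (median -1.17) and all 10 in CARM1i (median -0.46), beside 20.5% and 8.59% of all genes. Top2a averaged 4855 ± 159 normalized counts in KO, 8752 ± 236 in CARM1i and 12914 ± 323 in WT cells, with Ccna2 at 935 ± 29.1, 1897 ± 77.0 and 2641 ± 62.9, and Mcm6 at 3076 ± 34.5, 5359 ± 55.2 and 6493 ± 308, in the same order of groups. Pcna lost its CARM1i call without CARM1i replicate 2 or 3 or WT replicate 1 or 2 and with only the compared groups. The part of proliferation in the levels of the 7 enzymes was not tested.

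The transcription factor ATF4 is known to drive Mthfd2, Shmt2 and serine synthesis genes in starved cells. A list of 12 genes held Atf4 itself and targets of ATF4. Of these 12, 3 rose and 3 fell in KO (median 0.02), near the 21.4% higher and 20.5% lower of all tested genes. In CARM1i 2 rose and 1 fell (median -0.01), beside 10.5% higher and 8.59% lower. Atf4 was 1 of the 3 that fell in KO (-0.12 ± 0.03, limma adjusted p = 0.005196). Ddit3 rose by 0.57 ± 0.04 and Chac1 by 0.30 ± 0.05 in KO, while the amino acid transporter gene Slc7a5 fell by 0.46 ± 0.05. The fall of Slc7a5 in CARM1i (-0.14 ± 0.05, limma adjusted p = 0.04056) lost its call in 7 alternative fits, with adjusted p up to 0.1665.

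Markers of other cell types, those known for Aldh1l1 included, were summed per library. Of 8 astrocyte markers 5 had values and Aqp4, S100b and Fabp7 were not among the genes analysed; their summed level was 5677 to 5865 in KO, 5995 to 6236 in CARM1i and 5940 to 6149 normalized counts in WT libraries. Most of that astrocyte sum was Gja1, at means of 4397 in KO, 4864 in CARM1i and 4621 in WT. Gfap, the defining astrocyte filament gene, averaged 3.66 in KO, 3.00 in CARM1i and 7.31 in WT. Of 8 hepatocyte markers 3 had values, with sums of 24.2 to 44.3 in KO, 43.8 to 65.2 in CARM1i and 42.2 to 44.0 in WT, and Alb at 6.07, 7.21 and 3.16 in the same order of groups. Macrophage markers (4 of 8, without Ptprc and Adgre1) summed to 292 to 334 in KO, 294 to 323 in CARM1i and 253 to 318 in WT. Adipocyte markers (3 of 6, without Adipoq and Plin1) summed to 213 to 240 in KO, 147 to 199 in CARM1i and 169 to 177 in WT. Single markers went both ways in KO against WT. Sox9 (astrocyte), Cd68 (macrophage) and Pparg (adipocyte) were called higher, beside 21.4% of all tested genes. For Cd68 the groups overlapped, at 54.0, 105 and 99.2 normalized counts in KO and 34.5, 56.8 and 36.4 in WT libraries. Slc1a3 (astrocyte), Cd14 (macrophage) and Apob (hepatocyte) were called lower, beside 20.5%. The calls of Pparg, Cd14 and Apob ended in some alternative fits. The part of these cell types, and of the lower fibroblast marker sum in KO, in the levels of the 8 enzymes was not tested.

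Over the 9 libraries, 498 of 10463 genes with a mean of at least 100 normalized counts (4.76%) had a correlation above 0.95 with Aldh1l1. The most alike were Nbr1 (r = 0.99), Dpp7, Gdpd1, Fam50a and Smim14. Their folds were smaller than that of Aldh1l1, with KO means of 133, 188, 162, 150.1 and 151% of the WT means, against 373% for Aldh1l1. For Shmt2 81 genes (0.774%) passed 0.95, led by Met (r = 0.98), Umps, Slc7a5, Lrwd1 and Rbbp4. Their KO means were 77.1, 81.5, 72.8, 76.6 and 82.8% of the WT means, against 78.4% for Shmt2.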

How the data were processed

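Poly(A) RNA of mouse embryonic fibroblasts was sequenced in 9 libraries made with a stranded kit, per the labels' protocols. Per the submitters' processing notes the tools were HTSeq 0.6.0, TopHat2 2.0.10 and DESeq 1.18.0, on mm10. The sources used here give neither annotation release nor strand setting. Deposited by the authors was a normalized signal, which is read counts divided by a size factor per library, for 16428 genes. Dividing by what 1 read is worth gave whole reads for 100% of values in each library, within 1e-06, and for KO replicate 2 that worth is 1.01, too near 1 for an automatic test. IDs were matched to GENCODE M21 (16413 without version). Replicates differed beyond counting noise (chi-square of 2.40 to 7.71 per gene).

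Genes were tested with limma 3.58.1 (R 4.3.3), with its trend option, on log2(value + 1). The fit covered 14560 genes with a mean of at least 10, all 9 libraries in 1 fit with 3 groups, Benjamini-Hochberg adjustment over all genes and a threshold of 0.05. Fold changes on this scale understate those of low genes. The fit was checked on simulated counts. It recovered 56% of 1.25-fold changes for KO against WT and 62% for CARM1i against WT. Of 2-fold changes it recovered 90% and 78%. The simulation changed 50 genes per fold size among 14560 and gave 160 and 164 calls in all. The data gave 6100 and 2784, so the adjusted threshold was stricter in the simulation. These shares therefore do not give the recovery in the data, where changes of small size can still be missed. Alternatives included count tests on those reads with DESeq2 1.42.0 and edgeR 4.0.16. Members and lists were chosen with earlier results of these data known. Named genes are all members and, per list or subgroup, the 2 to 4 with the smallest adjusted p in KO against WT. Added to these were the 5 genes most correlated with Aldh1l1 and with Shmt2. Pcna, Aldh18a1, Aldh1b1, Gldc, Atf4, overlapping genes and cell type markers were named after their values were seen. Some genes of the further folate list enter its counts but are not reported here by name.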

Additional observations from a re-analysis of the deposited data

How the results depend on the processing

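Under the 19 alternatives no member changed direction in any comparison. Of 456 refitted member changes, 448 were rated the same as in the reported fit. For Aldh1l1, which was not tested, this meant a change that moved by less than the residual SD of the fit. For the other members it meant keeping the side of the threshold. The exceptions were Shmt1 in CARM1i against KO, at 0.2264 with quantile normalization, and calls that depended on 1 library. Without a library, Shmt1 in CARM1i against KO ran from 0.1940 to 0.3169, Mthfd2 in CARM1i against KO from 0.1299 to 0.1876, Mthfd1 in CARM1i against WT from -0.2407 to -0.1466 and Shmt2 in CARM1i against WT from -0.1505 to -0.0414. Aldh1l1 ranged from 1.78 to 1.98 in KO against WT and from 0.93 to 1.13 in CARM1i against WT. All 72 refitted pair ratios moved by less than the replicate SD, but for many of them this was fixed beforehand. Leaving out 1 of 3 libraries cannot move a mean by that much, and rescaling to a common total nearly cancels in a ratio. Only quantile normalization and a pseudocount of 10 could have moved the ratios further. Genes called numbered 6100, 2784 and 3436 in KO against WT, CARM1i against WT and CARM1i against KO; edgeR called 6150, 2821 and 3471 and DESeq2 5650, 2611 and 3172. Calls in the further folate list in CARM1i against WT numbered 9 with quantile normalization, against 5, and in CARM1i against KO 5 to 8 without a library, against 8, with 5 without CARM1i replicate 2 or KO replicate 2. The causes were not tested. Same-numbered replicates did not deviate together (correlations -0.0870 to 0.0268), so the numbers were taken as names. With the replicate block the calls numbered 5865, 2553 and 3156, and no member's call changed.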

Other observations

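Aldh1l1 belongs to the aldehyde dehydrogenase family, and other members of that family were higher in KO cells too. Of 18 further family genes 14 were tested. In KO against WT 7 rose and 1 fell, beside 21.4% higher and 20.5% lower of all tested genes, with a median log2 change of 0.23. In CARM1i against WT 2 rose, beside 10.5% higher, and in CARM1i against KO 6 fell, beside 11.5% lower. Of these 6 calls in CARM1i against KO all but that of Aldh3a2 ended in some alternative fits. Among the 7 that rose in KO, Aldh1b1 lost its call without KO replicate 1 or 2 or WT replicate 1 or 3. No family gene fell in CARM1i against WT under limma, edgeR, DESeq2 or an unadjusted limma p of 0.05. No family gene rose in CARM1i against KO under limma, edgeR or DESeq2, and 2 had an unadjusted limma p under 0.05. Aldh3a2, which oxidizes fatty aldehydes, averaged 4232 ± 94.5 normalized counts in KO, 3591 ± 82.0 in CARM1i and 3248 ± 3.35 in WT cells (SD, n = 3 each), and rose by 0.38 ± 0.03 in KO and by 0.14 ± 0.03 in CARM1i. Aldh2, the mitochondrial acetaldehyde enzyme, averaged 6776 ± 67.0 in KO, 6256 ± 136 in CARM1i and 5745 ± 167 in WT cells and rose by 0.24 ± 0.03 in KO; its call in CARM1i (0.12 ± 0.03) ended with quantile normalization and without CARM1i replicate 2 or WT replicate 2. Aldh6a1, of valine breakdown, averaged 720 ± 52.4 in KO, 599 ± 54.6 in CARM1i and 515 ± 59.9 in WT cells and rose by 0.49 ± 0.09 in KO. The family gene that fell in KO was Aldh18a1, of proline synthesis, named after its value was seen (-0.16 ± 0.04); its call ended without KO replicate 2.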
